A study of Mus musculus with 89 samples.

Results

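The 7 genes Otx2, Pou3f1, Foxd3, Sox3, Grhl2, Fgf5 and Zic2, factors of the formative and primed epiblast, were followed across RNA-seq libraries of mouse ESCs that carried or lacked the orphan nuclear receptors Esrrb and Nr5a2. The genes were picked by symbol, and 1 row for each gave 7 of 54146 gene rows in the expression tables. Libraries came from 4 states in each of 2 media. All cells were EKOiE, in which endogenous Esrrb was knocked out and an Esrrb transgene was switched on by doxycycline (Dox), so that the control also lacked endogenous Esrrb. In +E+N, Dox was present at 1 µg/ml, and in −E it had been absent for 2 days. The states −N and −E−N used EKOiE NrKO cells, in which exon 4 of Nr5a2, coding for part of the DNA-binding domain, was disrupted on both alleles, with Dox in −N and 2 days after its removal in −E−N. There were 2 replicates of each state in FCS/LIF, which contains serum and the cytokine LIF, and 3 in 2i/LIF, which lacks serum and contains LIF with inhibitors of the kinases MEK and GSK3. The NrKO cells were clonal, and the study's account of its RNA-seq names a single clone. In these libraries, effects of the line cannot be told apart from those of Nr5a2 loss, nor culture batch from medium. The study reports that repair of an Nr5a2 allele restored self-renewal and reversed changes of pluripotency genes measured by qPCR. No RNA-seq library came from repaired cells. The study describes its replicates as independent experiments, while the labels give replicate numbers alone.

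Naive ESCs correspond to the pre-implantation epiblast and are held there by a network of TFs that includes Esrrb, Nr5a2, Nanog and the Klf factors. On exit, cells pass through a formative stage, in which Otx2 and Pou3f1 come on and prepare enhancers for later use, and then become primed, like the post-implantation epiblast, which is marked by Fgf5 and is open to somatic differentiation. FCS/LIF cultures hold a mixture of naive cells and cells that have begun to move away from that state, while 2i/LIF blocks FGF signalling through MEK and keeps cultures more uniformly naive.

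Library totals ran from 36514172 to 45443379 estimated counts in FCS/LIF, and from 26653035 to 32526534 in 2i/LIF. Esrrb, measured as TPM (a level scaled to gene length and library size), lay between 163 and 249 in FCS/LIF in +E+N, and dropped to between 38.93 and 40.14 in −E. In 2i/LIF its level was between 187 and 273 TPM in +E+N and between 113 and 133 in −E, so that every −E library was below every +E+N library, but by a log2 fold change of only -0.46 (standard error 0.158, edgeR adjusted p = 0.116), which missed the threshold. The −E−N libraries held 16.83 to 19.22 TPM of Esrrb in FCS/LIF and 31.05 to 49.87 TPM in 2i/LIF. A value of Esrrb joins transgene and transcript of the disrupted gene, and one of Nr5a2 joins all exons, so the Nr5a2 level does not check the disruption. By qPCR across the deleted region, the study reports no intact Nr5a2 transcript in its knockout clones.

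The 7 genes lie on 5 chromosomes of mm10. In the GENCODE vM21 annotation, Otx2 (ENSMUSG00000021848) lies on the minus strand at chr14:48657677-48673819 and has coding transcripts of 3 to 6 exons. Sox3 (ENSMUSG00000045179, chrX:60891366-60893430, minus strand), Pou3f1 (ENSMUSG00000090125, chr4:124656807-124660655, plus strand) and Foxd3 (ENSMUSG00000067261, chr4:99656299-99658622, plus strand) each consist of 1 exon. Grhl2 (ENSMUSG00000022286, chr15:37233036-37363569, plus strand) is the longest, with up to 16 exons. Fgf5 (ENSMUSG00000029337, chr5:98254184-98277030, plus strand) has up to 3 exons, and so has Zic2 (ENSMUSG00000061524, chr14:122475435-122479852, plus strand), whose neighbour on the other strand is its paralogue Zic5. Genes annotated on the opposite strand overlap Otx2, Pou3f1 and Grhl2. Libraries were stranded, and these opposite-strand genes held at most 106 counts in any library (Gm16136 in Grhl2) and at most 3 within Otx2 and Pou3f1.

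RefSeq promoter windows (GRCm38.p6) were at hand for Otx2, Foxd3 and Fgf5, the genes with the largest falls and the ligand that rose, and the 250 bases before an annotated start are shown for each. Capitals mark TATAAA and GGGCGG on either strand.
Otx2, chr14:48667645-48667894, minus strand: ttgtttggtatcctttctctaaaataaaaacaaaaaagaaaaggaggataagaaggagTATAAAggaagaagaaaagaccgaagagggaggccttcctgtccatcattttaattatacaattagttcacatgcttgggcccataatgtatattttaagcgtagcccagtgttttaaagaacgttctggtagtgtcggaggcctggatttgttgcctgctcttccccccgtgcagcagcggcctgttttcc
Foxd3, chr4:99656049-99656298, plus strand: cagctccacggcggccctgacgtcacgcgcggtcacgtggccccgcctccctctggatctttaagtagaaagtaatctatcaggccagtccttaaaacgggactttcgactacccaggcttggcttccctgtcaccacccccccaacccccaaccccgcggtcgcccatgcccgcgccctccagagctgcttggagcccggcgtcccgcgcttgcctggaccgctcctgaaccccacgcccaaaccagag
Fgf5, chr5:98253934-98254183, plus strand: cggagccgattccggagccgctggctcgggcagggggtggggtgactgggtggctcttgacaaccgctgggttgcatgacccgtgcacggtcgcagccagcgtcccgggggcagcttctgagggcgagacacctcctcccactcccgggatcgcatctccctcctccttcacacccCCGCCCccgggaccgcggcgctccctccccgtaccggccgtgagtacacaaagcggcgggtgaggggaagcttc
Of 4 Otx2 starts in the table, the most upstream is shown, an AT-rich window with 42% G and C, 6 CpG and 1 TATAAA, a motif found in 12.4% of the 32851 windows of this length. Foxd3 and Fgf5 have windows of 65.6% and 70.8% G and C with 21 and 24 CpG, against medians of 52.4% and 6 over all windows, and the Fgf5 window holds 1 GGGCGG, present in 32.7% of windows. The nuclear receptor half-site AAGGTCA and its looser form AAGGNCA, which covers it, were searched on both strands and occur in 4.08% and 17.5% of all windows. Neither is among the letters of these 3 windows or of those at the other Otx2 starts. More distant sequence was not searched.

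With both receptors present, 6 of the 7 genes were called higher in FCS/LIF than in 2i/LIF, where 34.7% of the 16147 genes tested were called in either direction 17.5% higher and 17.2% lower in FCS/LIF. Calls required a fold change above 1.5 and, in the quasi-likelihood test of edgeR, a Benjamini-Hochberg adjusted p under 0.01. Fgf5, the secreted FGF ligand that marks the post-implantation epiblast, had 89 and 113 counts in the FCS/LIF libraries and 1 in each of the 3 2i/LIF libraries, a ratio of 71.4 after scaling (95% interval 24.1 to 349, counting error only). Pou3f1, a POU-domain TF also known as Oct6, was at 14.8 and 17.16 TPM against 0.18, 0.28 and 0.33 TPM, a 60.0-fold difference (log2 5.91, standard error 0.21, edgeR adjusted p = 1.18e-12). The homeobox TF Otx2 was at 25.55 and 31.04 TPM against 1.31, 0.98 and 1.02, a 24.7-fold difference (log2 4.63, standard error 0.239, edgeR adjusted p = 9.76e-11). All FCS/LIF libraries of these 3 genes stood above all 2i/LIF libraries.

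Grhl2, a Grainyhead-like TF of epithelial enhancers, was 9.81-fold higher in FCS/LIF, between 13.95 and 15.59 TPM against 1.06 to 1.94. The differences of Foxd3, a forkhead TF needed to maintain the epiblast, and Zic2, a zinc finger TF, were smaller, at 2.13-fold and 2.02-fold, and both genes were well expressed in 2i/LIF, at 9.01 ± 0.702 and 12 ± 2.44 TPM (SD, n = 3). Sox3, a TF of the SoxB1 group to which Sox2 belongs, was the exception, with a log2 difference of 1.08 (standard error 0.442, edgeR adjusted p = 0.0447) that was not called. By TPM the order in FCS/LIF was Otx2, Zic2, Foxd3, Pou3f1, Grhl2, Sox3 and Fgf5, where the ranges of Pou3f1 and Grhl2 and those of Sox3 and Fgf5 overlapped. In 2i/LIF it was Zic2, Foxd3, Grhl2, Otx2, Sox3, Pou3f1 and Fgf5, and neighbours overlapped for Zic2 and Foxd3, for Grhl2 and Otx2, and for Otx2 and Sox3. In bulk RNA, more cells expressing a gene and more RNA per cell cannot be told apart.

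**Figure D1:**
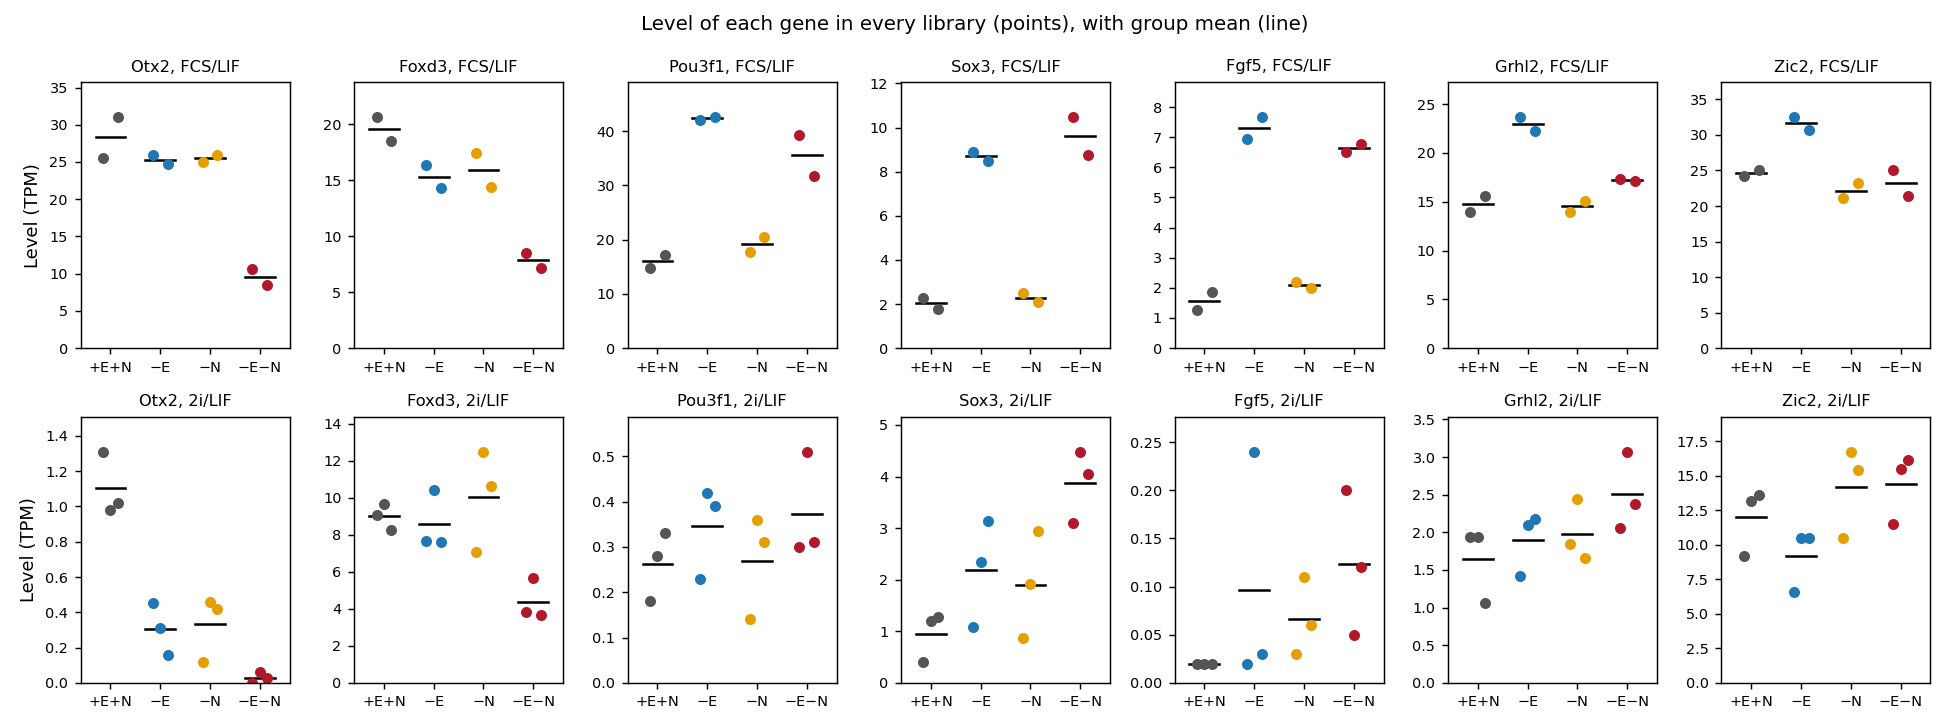
Level in TPM of each gene in every library (points) and the group mean (line), by state on the horizontal axis, with FCS/LIF above and 2i/LIF below and a separate axis from 0 for each panel. In FCS/LIF, Fgf5, Sox3 and Pou3f1 were high in both states without Dox, while Otx2 and Foxd3 were low in −E−N, where Otx2 fell to 8.48 and 10.59 TPM.

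After removal of Esrrb in FCS/LIF, 3 of the 7 genes rose and 0 fell at the threshold. Over the 15636 genes tested, 5.76% were called in this comparison, 3.23% higher and 2.53% lower. Fgf5 went from 1.27 and 1.85 TPM in +E+N to 6.95 and 7.67 TPM in −E, a 4.25-fold rise (log2 2.09, standard error 0.136, edgeR adjusted p = 3.71e-05). Sox3 went from 2.28 and 1.77 to 8.90 and 8.50 TPM, a 3.94-fold rise (log2 1.98, standard error 0.174, edgeR adjusted p = 0.000144). For Pou3f1 the levels were 14.8 and 17.16 TPM before and 42.12 and 42.6 TPM after, a 2.44-fold rise (log2 1.29, standard error 0.0962, edgeR adjusted p = 6.49e-05), which made it the highest of the 7 genes by TPM in −E. By CPM, a count scaled to library size, the +E+N and −E libraries did not overlap for any of the 7 genes, as was so for 63.3% of all genes tested. In −N the libraries did not overlap for 6 of the 7 genes, against 41.2% of all genes, and in −E−N for 7 of 7, against 74%.

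The same 3 genes were called higher in −E−N in FCS/LIF, and 2 others, Otx2 and Foxd3, were called lower, in a comparison with 18.8% of genes called, 12.4% higher and 6.40% lower. All comparisons with +E+N share its libraries. Sox3 reached 10.48 and 8.77 TPM (log2 fold change 2.08, standard error 0.175, edgeR adjusted p = 3.40e-05), Fgf5 6.51 and 6.79 TPM (2.00, standard error 0.136, edgeR adjusted p = 1.20e-05) and Pou3f1 39.3 and 31.78 TPM (0.99, standard error 0.0961, edgeR adjusted p = 7.48e-05). Against −E, the −E−N values of the risers differed little, with log2 differences of 0.10 for Sox3 (edgeR adjusted p = 0.694), -0.09 for Fgf5 (edgeR adjusted p = 0.636) and -0.30 for Pou3f1 (edgeR adjusted p = 0.0522), none of them called. Against −N all 3 were called higher in −E−N, by 1.97, 1.52 and 0.79 on the log2 scale, where 10.1% of genes were called, 6.57% higher and 3.49% lower.

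Otx2 and Foxd3 fell when both receptors were missing. In TPM, Otx2 was at 25.55 and 31.04 in +E+N, 25.95 and 24.7 after loss of Esrrb, 25.03 and 25.93 after loss of Nr5a2, and 10.59 and 8.48 after loss of both. The 3 states with at least 1 receptor thus lay close together, and both −E−N libraries stood far below all of them. Against +E+N, Otx2 was 3.31-fold lower in −E−N (log2 fold change -1.73, standard error 0.123, edgeR adjusted p = 1.54e-05), while the changes in −E (-0.29, edgeR adjusted p = 0.113) and −N (-0.21, edgeR adjusted p = 0.433) were not called. Foxd3 stood at 20.66 and 18.52 TPM in +E+N, at 16.35 and 14.32 without Esrrb, at 17.44 and 14.39 without Nr5a2, and at 8.53 and 7.19 without both. Its levels in the single losses lay between those of the control and the combined loss, and its fall was called only in −E−N (2.80-fold, log2 -1.49, standard error 0.138, edgeR adjusted p = 5.88e-05), with -0.48 in −E (edgeR adjusted p = 0.0351) and -0.36 in −N (edgeR adjusted p = 0.22).

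Compared directly with each single loss in FCS/LIF, −E−N was lower for Otx2 by -1.44 against −E (standard error 0.123, edgeR adjusted p = 0.000366) and by -1.52 against −N (standard error 0.123, edgeR adjusted p = 6.47e-05). For Foxd3 these differences were -1.01 (standard error 0.139, edgeR adjusted p = 0.00191) and -1.13 (standard error 0.138, edgeR adjusted p = 0.000564). Both genes were called in both comparisons. Against −E, 5.05% of genes were called, 3.52% higher and 1.53% lower. The call of Foxd3 against −E rested on single libraries, and was lost without −E replicate 1 (edgeR adjusted p = 0.0281, log2 difference -0.93) or without −E−N replicate 2 (edgeR adjusted p = 0.0312, log2 difference -0.93).

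Grhl2 and Zic2 were not called in any state in FCS/LIF. Grhl2 was at 13.95 and 15.59 TPM in +E+N and 23.68 and 22.24 TPM in −E, and this 1.42-fold difference had a small p but did not reach the fold limit (log2 0.51, standard error 0.0658, edgeR adjusted p = 0.0012). With limma on log2(TPM + 1) values it passed both limits (0.60, limma adjusted p = 0.00466). In −E−N it was at 17.34 and 17.11 TPM, a log2 difference of 0.13 from +E+N (standard error 0.0662, edgeR adjusted p = 0.151). For Zic2 the TPM ranges were 24.18 to 25.08 in the control, 30.73 to 32.53 without Esrrb, 21.09 to 23.21 without Nr5a2 and 21.35 to 25.12 without both. The largest of its log2 differences from +E+N was 0.26, in −E (standard error 0.0737, edgeR adjusted p = 0.0368). Against −E, Zic2 differed in −E−N by -0.48 (edgeR adjusted p = 0.00327), under the fold limit, and was called there without −E−N replicate 1 (-0.61, edgeR adjusted p = 0.00417).

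Loss of Nr5a2 alone gave 0 calls among the 7 genes in FCS/LIF with edgeR, with DESeq2 and with limma, and 0.173% of all genes were called with edgeR, 0.0767% higher and 0.0959% lower. By unadjusted p under 0.05, 2 of the 7 differed, as did 16.3% of all genes. These 2 were Fgf5, at 2.21 and 1.99 TPM in −N (log2 difference 0.48, standard error 0.142, edgeR adjusted p = 0.131), and Foxd3. The median log2 difference of the 7 genes was 0.51 without Esrrb, -0.09 without Nr5a2 and 0.13 without both, where the medians over all genes tested were -0.0025, -0.012 and 0.

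**Figure D2:**
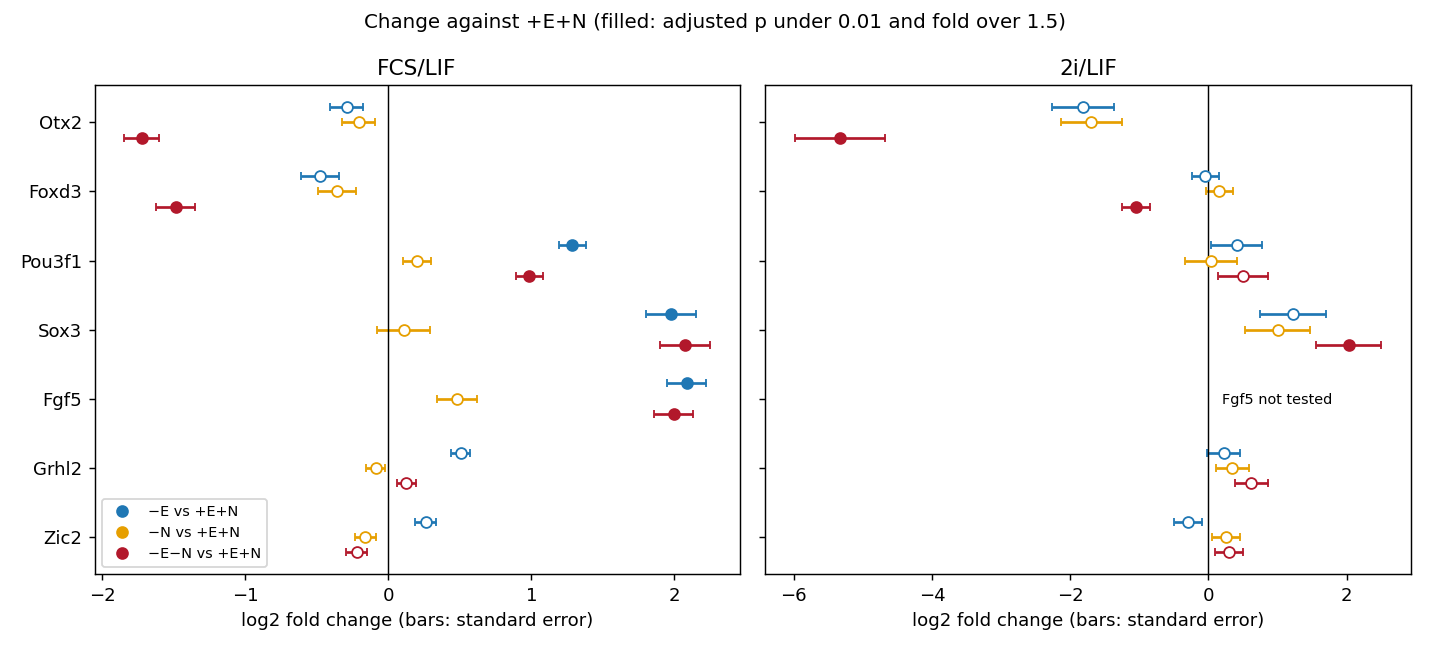
Log2 fold change of each gene against +E+N (points) with its standard error (bars) in −E, −N and −E−N, for FCS/LIF on the left and 2i/LIF on the right, where the horizontal scales differ. Filled points passed the threshold: 3 in −E and 5 in −E−N in FCS/LIF, and 3 in −E−N in 2i/LIF.

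Whether the log2 change of the combined loss differed from the sum of both single changes was tested as an interaction, with an adjusted p under 0.01 as the limit. In FCS/LIF 0 of the 7 genes were called with edgeR or limma, 1 with DESeq2, and 0.032% of all genes were called with edgeR, 0.032% below the sum and 0% above it. Otx2 came nearest, with a change in −E−N that was -1.23 below the sum of the single changes (standard error 0.168, edgeR adjusted p = 0.0488), and was the gene that DESeq2 called (DESeq2 adjusted p = 2.05e-08). With the replicate number as a block, edgeR called Otx2 too (-1.23, edgeR adjusted p = 0.00785). At an unadjusted p under 0.05, 6 of the 7 genes had an interaction, all 6 below the sum, and 8.85% of all genes did. Besides Otx2 these were Foxd3 (-0.65), Fgf5 (-0.57), Pou3f1 (-0.50), Zic2 (-0.32) and Grhl2 (-0.29), while Sox3 was at -0.01. For Otx2 and Foxd3 this was a fall larger than the sum. For Fgf5, Pou3f1 and Grhl2 it was a smaller rise, at 2.00, 0.99 and 0.13 against sums of 2.57, 1.49 and 0.42. Zic2 was at -0.22 against a sum of 0.10. The share of all genes below the sum at this p was not counted. With the filter on low counts reduced to a single count, 3 were called, Otx2, Foxd3 and Pou3f1. Shares of all genes called were counted for edgeR with the main filter alone, and not for DESeq2 or this filter.

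**Figure D3:**
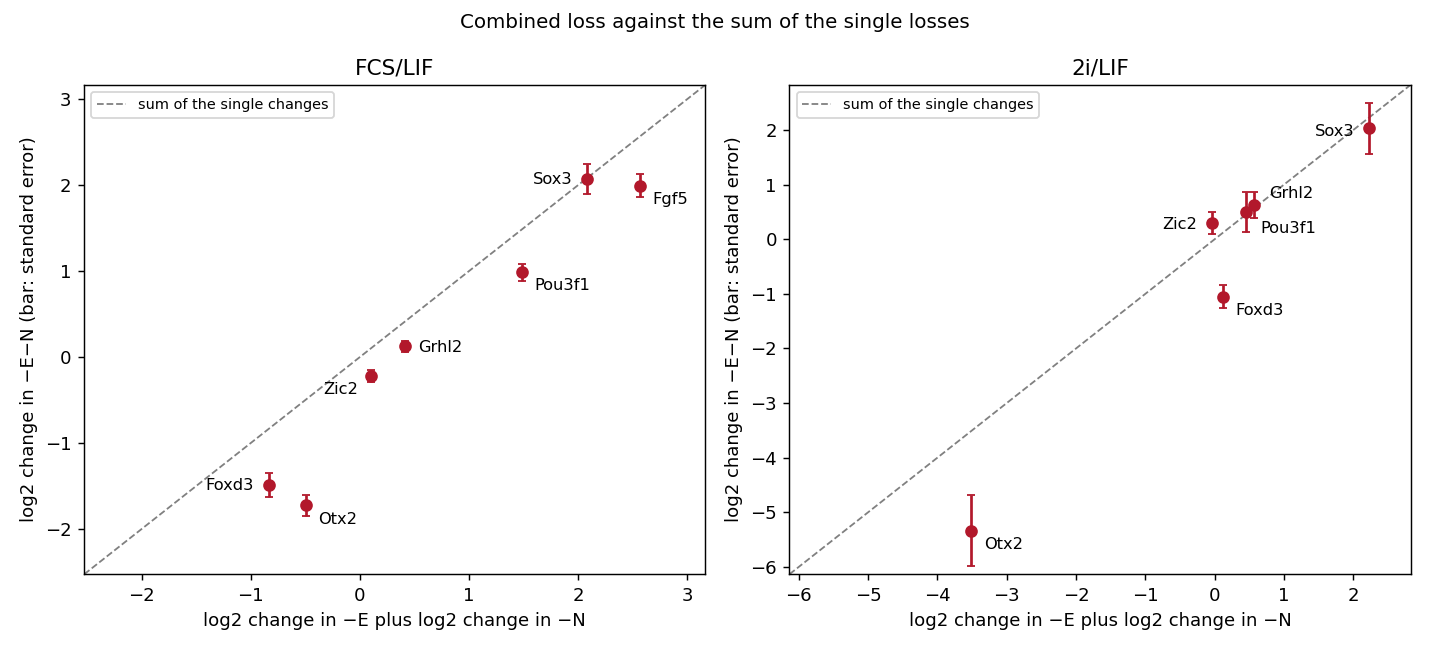
Log2 change in −E−N against +E+N (vertical axis, bars show the standard error) plotted against the sum of the log2 changes in −E and −N, with a dashed line where both are equal, for FCS/LIF and 2i/LIF. Otx2 lay below the line by -1.23 in FCS/LIF and -1.82 in 2i/LIF, and Foxd3 by -0.65 and -1.16. None of these 4 was called with edgeR without a replicate block, while DESeq2 called Otx2 in FCS/LIF and Foxd3 in 2i/LIF. All axes share the +E+N libraries.

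In 2i/LIF the combined loss again lowered Otx2 and Foxd3 and raised Sox3, and 18.6% of the 14355 genes tested were called, 9.06% higher and 9.56% lower. Fgf5 had too few counts to be tested there, which left 6 genes. Counts of Otx2 were 58, 39 and 39 in the control, 19, 11 and 7 without Esrrb, 6, 18 and 15 without Nr5a2, and 0, 2 and 1 without both. The 4 states thus descended from the control through both single losses to near absence, and the 3 −E−N libraries stood below all others. Summed over replicates, 3 counts in −E−N against 136 in +E+N gave a 46.1-fold lower level (95% interval 15.5 to 226, counting error only). The library with 0 counts allows a level of up to 0.0978 CPM, which is 3 counts in its total of 30685767. The fitted log2 fold change was -5.33 (standard error 0.653, edgeR adjusted p = 4.47e-05), a value that depends on the prior count of the fit at such levels.

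Otx2 counts were lower in each single loss too, without a call at the threshold. The log2 difference of Otx2 from +E+N was -1.82 in −E (standard error 0.445, edgeR adjusted p = 0.0312) and -1.69 in −N (standard error 0.442, edgeR adjusted p = 0.0281), and no library of either state overlapped the control. With limma on log2(TPM + 1) values Otx2 was called in both states, with limma adjusted p = 0.00866 and 0.00674. Among the 6 genes tested, 0 were called in −E or in −N with edgeR without a block or with DESeq2, where edgeR called 1.55% (0.439% higher, 1.11% lower) and 3.65% (1.61% higher, 2.04% lower) of all genes, and 2 and 1 of the 6 had an unadjusted p under 0.05, as had 20.3% and 25% of all genes.

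Foxd3 fell in 2i/LIF in the combined loss. It was at 9.08, 9.68 and 8.28 TPM in the control, 7.66, 10.44 and 7.60 without Esrrb, 7.07, 12.49 and 10.64 without Nr5a2, and 3.81, 5.68 and 3.65 without both. The ranges of the first 3 states overlapped, and all −E−N libraries lay below them. Its log2 fold change was -1.05 in the combined loss (standard error 0.203, edgeR adjusted p = 0.0013), against -0.04 without Esrrb (standard error 0.197) and 0.16 without Nr5a2 (standard error 0.197). The interaction was -1.16 (standard error 0.283, edgeR adjusted p = 0.0722). In 2i/LIF 0 of the 6 genes had a called interaction with edgeR or limma, 1 (Foxd3) with DESeq2 (DESeq2 adjusted p = 0.00505) and 1 at an unadjusted p under 0.05 with edgeR. Over all genes, edgeR called 0.307% (0.0975% above the sum, 0.209% below it), and 13.7% had such a p. The share called with DESeq2 was not counted. With the replicate number as a block, edgeR called Foxd3 too (-1.15, edgeR adjusted p = 0.00334).

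Set against each single loss in 2i/LIF, −E−N was lower for Otx2 and Foxd3, the 2 genes called among 6 in both comparisons, where 13.1% of genes were called against −E (6.9% higher, 6.21% lower) and 6.76% against −N (3.39% higher, 3.36% lower). For Foxd3 the log2 differences were -1.01 (standard error 0.203, edgeR adjusted p = 0.00252) and -1.21 (standard error 0.203, edgeR adjusted p = 0.00168). For Otx2, 3 counts stood against 37 in −E (12.9-fold lower, 95% interval 4.07 to 65.2) and 39 in −N (14.1-fold lower, 95% interval 4.49 to 71.4), with edgeR adjusted p = 0.00361 and 0.00516. These calls depended on single libraries. Against −E, the call of Otx2 was lost without −E replicate 1 or −E−N replicate 1 or 3 (edgeR adjusted p between 0.0143 and 0.0147), and that of Foxd3 without −E replicate 2 or −E−N replicate 1 or 3 (edgeR adjusted p between 0.0118 and 0.0135). Against −N, the call of Otx2 was lost without −N replicate 2 or 3 or any one of the −E−N replicates (edgeR adjusted p between 0.0101 and 0.0231). Log2 differences in these fits lay between -4.51 and -2.96 for Otx2 and between -0.93 and -0.88 for Foxd3.

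Sox3 rose in 2i/LIF in −E−N. Its levels were 0.41, 1.19 and 1.27 TPM in the control, 1.08, 2.34 and 3.14 without Esrrb, 0.86, 1.91 and 2.94 without Nr5a2, and 3.10, 4.48 and 4.05 without both. Both single losses overlapped the control, and −E−N did not. By CPM the libraries did not overlap with the control for 4 of 6 genes in the combined loss and for 1 gene in each single loss, against 52.4% of all genes, 24.8% without Esrrb and 32.2% without Nr5a2. The 4.08-fold rise in −E−N was called (log2 2.03, standard error 0.472, edgeR adjusted p = 0.00432), while the differences in −E (1.22, edgeR adjusted p = 0.162) and −N (1.00, edgeR adjusted p = 0.216) were not. Replicate 1 was the lowest Sox3 library in all 4 states. With the replicate number as a block, Sox3 was called in −E (1.23, edgeR adjusted p = 0.00529). The call in −E−N was lost without +E+N replicate 1 or 2 or −E−N replicate 2 or 3 (edgeR adjusted p between 0.0114 and 0.0157, log2 fold change between 1.67 and 2.22), and was kept when replicate 1 was left out of every state, an alternative chosen after seeing the data.

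The other genes that rose in FCS/LIF were close to the detection limit in 2i/LIF. Pou3f1 lay between 13 and 45 counts in the 12 libraries, and between 0.14 and 0.51 TPM, with overlapping states and a log2 difference of 0.50 in −E−N (standard error 0.364, edgeR adjusted p = 0.295). Fgf5 had 1 count in each control library, 1, 2 and 2 without Esrrb, 2, 6 and 3 without Nr5a2, and 5, 3 and 7 without both. All −E−N libraries were above all +E+N libraries, and the summed counts of 15 and 3 gave a ratio of 4.91 (95% interval 1.39 to 26.5, counting error only). At these counts the TPM value of a library is unreliable, since 2 counts were given as 0.24 TPM in one −E library and 0.03 in another.

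Grhl2 and Zic2 again were not called. Grhl2 was at 1.94, 1.94 and 1.06 TPM in +E+N and 2.06, 3.07 and 2.38 TPM in −E−N, a log2 difference of 0.62 (standard error 0.236, edgeR adjusted p = 0.0524). Zic2, which had the highest mean TPM of the 7 genes in all 4 states in 2i/LIF, with libraries that overlapped those of Foxd3 except in −E−N, was at 12 ± 2.44 TPM in +E+N and 14.4 ± 2.53 in −E−N (SD, n = 3; log2 difference 0.29, standard error 0.201, edgeR adjusted p = 0.265). Between −E−N and −E it differed by 0.59 (standard error 0.202, edgeR adjusted p = 0.0414), which was not called. Replicate 1 was the lowest Zic2 library in all 4 states. With the replicate number as a block, this difference was called (0.60, edgeR adjusted p = 2.07e-05).

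Whether a response differed between media was tested in a fit of all 20 libraries, at an adjusted p under 0.01. For −E−N, 1 of the 7 genes was called, Otx2, whose fall was smaller in FCS/LIF than in 2i/LIF by a log2 difference of 3.67 (standard error 0.669, edgeR adjusted p = 0.000783), and 13.2% of all genes were called, 7.3% higher and 5.93% lower. The Otx2 response in 2i/LIF rests on 3 counts, and on log2(TPM + 1) values the sign turned, to -0.45 (limma adjusted p = 0.118). On that scale Fgf5 (1.45, limma adjusted p = 8.66e-06) and Pou3f1 (0.98, limma adjusted p = 0.00117) were called in its place, and for Fgf5 this was the opposite sign to the edgeR value of -0.16 (edgeR adjusted p = 0.856). In FCS/LIF, 927 Otx2 counts remained in −E−N, against 3 in 2i/LIF. For −E, edgeR called 0 of the 7 responses, DESeq2 1 (Otx2) and limma on log2(TPM + 1) values 2 (Fgf5 and Pou3f1), and for −N edgeR called 0, DESeq2 1 (Otx2) and limma 0. At an unadjusted p under 0.05 with edgeR, 3 and 1 of the 7 differed, as did 17.6% and 15.3% of all genes, and 1.06% (0.588% higher, 0.471% lower) and 0.743% (0.409% higher, 0.334% lower) were called. The Sox3 response in −E−N was close in both media, with a difference of 0.08 (standard error 0.61, edgeR adjusted p = 0.95), and this wide error leaves room for a difference of either sign.

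Across the 20 libraries, with log2(CPM + 1) values centred within each medium, the genes moved in 2 sets. Otx2 and Foxd3 had a correlation of 0.80, and Fgf5, Pou3f1 and Sox3 had correlations between 0.76 and 0.88 with each other. Between the sets, values ran from -0.73 for Otx2 and Sox3 to -0.38 for Foxd3 and Pou3f1. Grhl2 correlated at between 0.48 and 0.59 with the risers, and Zic2 at 0.02 with both Otx2 and Foxd3. The libraries share states and depth, so these values describe the design as well as the genes. In 2i/LIF, Fgf5 was not tested and lay between 0.032 and 0.237 CPM, and Pou3f1 lay between 0.472 and 1.59 CPM. On this scale Fgf5 varied little there, so its correlations rest mainly on FCS/LIF. The sets follow the rises and falls called above in the same libraries, and are not separate evidence for them.

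Over all 13844 genes tested in both media, those with the pattern most like Otx2 were Cbfa2t2, Sgo1 and Mpnd (r from 0.907 to 0.917 over the 20 libraries), and those most like Foxd3 were Bicral, Msh6 and Atf1 (0.939 to 0.953). Sox3 was matched most closely by Lmo4, Colec12 and Marveld1 (0.928 to 0.950), Pou3f1 by Wt1, Arntl2 and Yeats2 (0.871 to 0.902) and Fgf5 by Shroom2, Gfra1 and Wt1 (0.893 to 0.899). Wt1, which encodes a zinc finger TF, was thus among the nearest to both. Yap1, Btbd9 and Zranb3 were nearest to Grhl2 (0.853 to 0.876), and Sox4, 2810403A07Rik and Zfp422 to Zic2 (0.853 to 0.877).

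**Figure D4:**
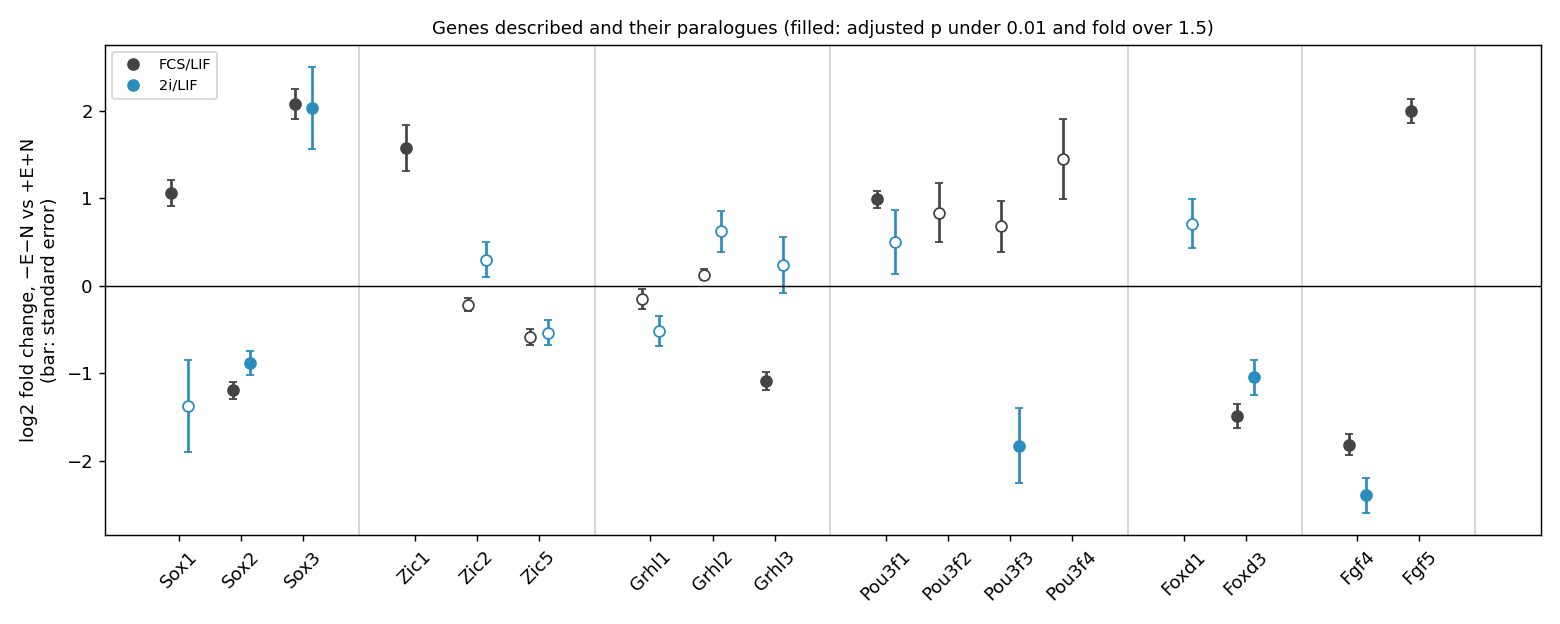
Log2 fold change in −E−N against +E+N (points, with standard error) for genes of the SoxB1, Zic, Grhl, Pou3f, Foxd and FGF families that are named in the text, where tested, in FCS/LIF and 2i/LIF; filled points passed the threshold. Within the SoxB1 group Sox3 rose by 2.08 and 2.03 while Sox2 changed by -1.20 and -0.88, and of the 2 FGF ligands, Fgf4 changed by -1.82 and -2.40.

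Close paralogues moved in both directions. Of 17 paralogues, 11 were tested in FCS/LIF and 9 in 2i/LIF. In −E−N, 2 rose and 3 fell in FCS/LIF, with a median log2 change of -0.16 against 0 over all genes, and 3 fell in 2i/LIF, with a median of -0.54 against 0.01. Over all genes tested, 18.8% were called in −E−N in FCS/LIF and 18.6% in 2i/LIF. Sox2, the SoxB1 factor of the naive and primed network, fell in −E−N in FCS/LIF (log2 fold change -1.20, standard error 0.0995, edgeR adjusted p = 3.23e-05) and 2i/LIF (-0.88, standard error 0.139, edgeR adjusted p = 0.000292), in the states where Sox3 rose. By TPM Sox2 stayed far above Sox3, at 114 ± 14.8 against 9.63 ± 1.21 in −E−N in FCS/LIF (SD, n = 2). Sox1, the SoxB1 factor of the early neural plate, rose in −E−N in FCS/LIF (1.06, standard error 0.146, edgeR adjusted p = 0.000498), to 2.08 and 2.43 TPM.

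Fgf4, the ligand whose signal drives exit from the naive state, moved opposite to Fgf5. It fell from 36.94 and 41.97 TPM to 11.28 and 13.91 TPM in −E−N in FCS/LIF (log2 fold change -1.82, standard error 0.121, edgeR adjusted p = 1.08e-05), and from 51.31 ± 4.55 to 9.77 ± 2.42 TPM (SD, n = 3) in 2i/LIF (-2.40, standard error 0.196, edgeR adjusted p = 2.01e-06). In −E in FCS/LIF, where Fgf5 rose, Fgf4 fell by 0.71 on the log2 scale (edgeR adjusted p = 0.00346). Grhl3, a paralogue of Grhl2, fell in FCS/LIF in −E and −E−N, by 1.10 and 1.09 on the log2 scale, and showed a log2 difference of 0.24 in −E−N in 2i/LIF (standard error 0.32). Zic1 rose in −E−N in FCS/LIF (1.58, standard error 0.263, edgeR adjusted p = 0.00136) but only to 0.50 and 0.67 TPM, while Zic5, at 11.32 to 14.71 TPM in that state, stayed below the fold limit like Zic2. Pou3f3 fell in −E−N in 2i/LIF (-1.83, standard error 0.428, edgeR adjusted p = 0.0045), where it had between 11 and 21 counts. Pou3f2, Pou3f4 and Grhl1 were not called in −E or −E−N against +E+N in either medium where they were tested. Foxd1, tested in 2i/LIF alone with 33 to 38 counts in −E, differed from +E+N there by 1.17 (standard error 0.275, edgeR adjusted p = 0.0266) and in −E−N by 0.71 (standard error 0.28, edgeR adjusted p = 0.0605), and was not called. Otx1, Crx, Foxd2, Fgf6 and Zic4 were too low to be tested between states.

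A wider list of 28 formative and primed genes, which holds regulators and targets of the FGF, Nodal and Wnt pathways along with the de novo DNA methyltransferases, was also counted. In FCS/LIF, 8 of 27 tested rose and 3 fell in −E, and 6 rose and 7 fell in −E−N, with median log2 changes of 0.26 and 0.30 against -0.0025 and 0 over all genes. Of all genes tested, 5.76% were called in −E and 18.8% in −E−N in FCS/LIF. The risers in −E−N were Dusp6, Cldn6, Cdh2, Fgf8, Lefty1 and Sall2, and the genes that fell were Etv5, Etv4, Dnmt3a, Epha4, Fgf15, Utf1 and Tcf15. In 2i/LIF, 10 of 24 rose and 4 fell in −E−N, with a median of 0.45 against 0.01 over all genes, of which 18.6% were called. Single losses gave calls there too. In −E, 5 rose (Dnmt3l, Dnmt3a, Lef1, Lefty1 and Lefty2) and Epha4 fell, with a median of 0.43, where 1.55% of all genes were called. In −N, 5 rose (Dnmt3b, Lef1, Lefty1, Lin28a and Lefty2) and 0 fell, with a median of 0.51, where 3.65% of all genes were called. Lef1, a TF of the Wnt pathway, rose in 2i/LIF from 0.24 to 0.36 TPM in +E+N to 8.48 to 10.3 TPM in −E−N (log2 fold change 5.03, standard error 0.303, edgeR adjusted p = 1.98e-07). Lefty1, an inhibitor of Nodal, rose in 2i/LIF by 3.32 (standard error 0.263, edgeR adjusted p = 1.57e-06), while Nodal itself fell (-2.82, standard error 0.234, edgeR adjusted p = 2.22e-06). With both receptors present, 21 of 27 were higher in FCS/LIF and 1 lower, where 17.5% and 17.2% of all genes were called. The median difference was 2.37, against 3.29 for the 7 genes.

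Of 15 naive factors, which include the 2 targeted genes, 11 fell in −E and 12 in −E−N in FCS/LIF, and 2 and 12 in 2i/LIF. Of all genes tested, 2.53% and 6.4% were called lower in these states in FCS/LIF, and 1.11% and 9.56% in 2i/LIF. The median log2 change of the naive factors in −E−N came to -2.20 with serum and -1.37 in 2i/LIF. Nr0b1, which encodes the orphan receptor Dax1, fell in 2i/LIF from 20.04 to 31.36 TPM in +E+N to 0.13 to 0.43 TPM in −E−N. Zfp42, which encodes Rex1, fell by 3.44 on the log2 scale in −E−N in FCS/LIF (standard error 0.0936, edgeR adjusted p = 1.05e-07). Dppa3, also known as Stella, was the exception in 2i/LIF and rose in −E−N (3.43, standard error 0.359, edgeR adjusted p = 1.29e-05). Of 6 general pluripotency markers, 3 fell in −E−N in FCS/LIF (Pou5f1, Dppa4 and Sox2), and in 2i/LIF Sox2 fell and Lin28a rose. Lin28a is also on the wider formative and primed list, and was called higher in −N in 2i/LIF too.

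Markers of other cell types were called in states where some of the 7 genes were called, and also where 0 were. In −E in FCS/LIF, where Fgf5, Sox3 and Pou3f1 rose, Gata2 and Gata3 rose and Ascl2 fell among the trophectoderm markers, Nes rose and Tubb3 fell among the neural ones, and Wnt3 and Dab2 rose among those of primitive streak and primitive endoderm. Of 10 trophectoderm markers, 8 rose in −E−N in FCS/LIF and 7 of 8 tested in 2i/LIF. In −N in 2i/LIF 4 rose, where 0 of the 6 genes tested were called. Of all genes tested, 12.4% were called higher in −E−N in FCS/LIF, 9.06% in −E−N in 2i/LIF and 1.61% in −N in 2i/LIF. The summed level of the trophectoderm markers in FCS/LIF was 308 to 364 TPM in the control, 440 to 591 without Esrrb, 618 to 869 without Nr5a2 and 1281 to 1939 without both. In 2i/LIF it was 42.2 to 52.6, 36.97 to 49.07, 110.1 to 120.5 and 267 to 430 TPM. In FCS/LIF the keratin genes Krt8 and Krt18 made up most of it, with means of 128 and 116 TPM in +E+N and 718 and 642 in −E−N. The defining TF Cdx2 was at 3.79 to 4.82 TPM in −E−N in FCS/LIF and at 22.87 to 30.63 TPM in 2i/LIF, against 0.85 to 1.22 and 0.38 to 1.41 TPM in +E+N, and no marker of the list was at 0 in all libraries of a state. The part of such cells in the values of the 7 genes was not tested.

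Neural progenitor markers, among which Sox1 and Zic1 are also paralogues above, gave 4 risers and 1 fall of 8 tested in −E−N in FCS/LIF, and 1 and 2 of 6 in 2i/LIF. For this list and the next, the shares of all genes called in −E−N were 18.8% in FCS/LIF and 18.6% in 2i/LIF. Nes, which encodes an intermediate filament of neural precursors, rose by 2.07 in FCS/LIF (standard error 0.0848, edgeR adjusted p = 1.04e-06), where Pax6 fell. In 2i/LIF the neuronal tubulin gene Tubb3 (-2.87, standard error 0.341, edgeR adjusted p = 3.56e-05) and Ncam1 (-1.91, standard error 0.18, edgeR adjusted p = 6.01e-06) fell, and Pax6 rose. Primitive streak and mesoderm markers gave 4 risers of 8 in FCS/LIF, among them Wnt3 (3.39, standard error 0.259, edgeR adjusted p = 2.14e-05) and T, and 2 risers, T among them, and 3 falls of 6 in 2i/LIF, where Gsc fell (-2.79, standard error 0.175, edgeR adjusted p = 2.53e-07), with a summed level of 15.89 to 16.32 and 10.58 to 20.18 TPM in −E−N. Primitive endoderm markers gave 3 risers and 1 fall of 11 in FCS/LIF and 3 and 2 of 9 in 2i/LIF, where Lama1 fell by 4.85 on the log2 scale. Fibroblast markers summed to at most 13.78 TPM in FCS/LIF and 4.49 in 2i/LIF, with 4 risers of 7 in −E−N in FCS/LIF and 1 riser and 1 fall of 4 in 2i/LIF. The part of these cell types in the values of the 7 genes was not tested either.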

How the data were processed

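RNA-seq was stranded, paired-end and poly-A selected. The authors aligned reads to mm10 with STAR and used RSEM to obtain an expected count and TPM for each gene. The deposited estimated counts were whole numbers, not normalized between libraries, and the deposited TPM values are relative within a library. The annotation and the strand setting of RSEM are not given in the sources used here. Gene symbols came from the row names. ERCC rows (92 of 54238) were left out. The ChIP-seq samples of the series were not analysed here.

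Counts were tested with edgeR 4.0.16 in R 4.3.3 (TMM normalization, quasi-likelihood test, Benjamini-Hochberg adjustment), with the 4 states of a medium in 1 fit, over genes that reached 20 counts in every replicate of 1 or more states. Comparisons between media used 1 fit of all 20 libraries. Each edgeR standard error, also in the figures, was the absolute log2 fold change divided by the square root of the F statistic. It is not a separate estimate, and with few counts it can look smaller than the p allows. An example is the Fgf5 response to −N between media (-1.36, standard error 0.588, edgeR unadjusted p = 0.0921). Calls used the study's limits, a fold change above 1.5 and an adjusted p under 0.01, and for the interaction and for responses between media the adjusted p alone. A single value cannot reach an exact permutation p below 0.333 with 2 libraries against 2, or 0.1 with 3 against 3. No replicates agreed within sampling noise (chi-square 4.28 to 28.3 for each degree of freedom). Intervals of count ratios (95%) cover counting error only. The alternatives were DESeq2 1.42.0, its size factors, other count filters, a replicate block, limma 3.58.1 on TPM values on a log2 scale after adding 1 or 0.1, other limits and leaving out each library. Shares of all genes were counted for edgeR with the main settings alone. The test of −E−N against +E+N was checked on simulated data, with the same dispersion for all genes, no replicate effect and changes in well-counted genes alone. Interactions, responses between media and changes of genes with few counts were not checked in this way.

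The 7 genes and all lists were chosen with earlier results of these data known, and Otx2, Foxd3, Sox3, Grhl2 and Fgf5 are among genes the study plotted from these samples. Genes named were the 7, all their paralogues, for each other list at most 3 called genes with the largest change in −E−N and a mean of at least 100 counts, the 3 genes most correlated with each of the 7, and the targeted genes. The names of further called genes of a list, the overlapping and neighbouring genes and Cdx2 in FCS/LIF were added after their values were seen. One gene that the rule covers is not reported here.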

Additional observations from a re-analysis of the deposited data

Results flagged for a closer look

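The response of Otx2 to the loss of both receptors differed between media by 3.67 on the log2 scale (FCS/LIF minus 2i/LIF, edgeR adjusted p = 0.000783), by a test of the difference itself. It was the 1 of 7 responses past the threshold, and in 2i/LIF it rests on 3 counts in −E−N.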

How the results depend on the processing

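Depth limits Otx2, Pou3f1 and Fgf5 in 2i/LIF, where few or no reads were counted in −E−N or in any state. Log2(TPM + 1) values shrink low genes and moved the median of all genes by 0.127 in −E−N in FCS/LIF. The numbers of genes called in −E and −E−N against +E+N in FCS/LIF and in −E−N in 2i/LIF stayed within 1.5 times in all alternatives. In 2i/LIF, Otx2 made it 1 gene called in −E and 1 in −N with limma on log2(TPM + 1) values, at an adjusted p under 0.05 and with all 20 libraries in 1 fit. Limma on log2(TPM + 1) left 1 gene, Foxd3, called in −E−N against −E and against −N, as log2(TPM + 0.1) did against −N. The interaction was called for 1 gene in each medium with DESeq2, and for 3 in FCS/LIF and 1 in 2i/LIF with at least 1 count. Responses between media numbered 1 in −E and 1 in −N with DESeq2 and with at least 1 count (Otx2), and 2 in −E and 2 in −E−N with limma on log2(TPM + 1) (Fgf5 and Pou3f1). The causes were not tested.

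Replicate numbers were not taken as pairs. Deviations of same-numbered libraries correlated at 0.116 to 0.535 in FCS/LIF, with only 2 numbers, and at 0.00733 to 0.658 in 2i/LIF, where 17 of 18 values passed 0.1. The medians were 0.201 in FCS/LIF and 0.463 in 2i/LIF, against -0.201 and -0.209 for libraries of other states with other numbers. With the replicate number as a block, 2 genes were called in −E (Otx2 and Sox3) and 4 in −E−N against −E in 2i/LIF (Otx2, Foxd3, Sox3 at 0.91 and Zic2 at 0.60), 3 in −E−N against −N there (Otx2, Foxd3 and Sox3), 1 interaction in FCS/LIF (Otx2) and 1 in 2i/LIF (Foxd3), and responses between media for 1 gene in −E (Zic2) and 2 in −E−N (Otx2 and Zic2). The Sox3 response in −E−N was -0.0030 under the block.

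Of the values called with the settings reported, the sign changed for Otx2 between media in −E−N, at -0.45 on log2(TPM + 1). On that scale the interaction was 0.33 for Otx2 and 0.12 for Sox3 in 2i/LIF and 0.010 for Sox3 in FCS/LIF, Zic2 differed by 0.063 between −E−N and −N in FCS/LIF, and the Fgf5 responses differed between media by 0.22 in −N and 1.45 in −E−N, the latter called on that scale. Leaving out each library gave 1 to 3 genes called in −E−N against −E in FCS/LIF, 0 to 2 in 2i/LIF, and 1 to 2 against −N in 2i/LIF. In these fits the Sox3 values ran from -0.10 to 0.34 in −N, from -0.24 to 0.20 for the interaction and from -0.043 to 0.19 in −E−N against −E in FCS/LIF, from -0.53 to 0.25 for the interaction in 2i/LIF, and from -0.18 to 0.44 for −E−N between media. Zic2 ran from -0.19 to 0.0069 in FCS/LIF and from -0.12 to 0.17 in 2i/LIF in −E−N against −N. In 2i/LIF, Pou3f1 ran from -0.22 to 0.34 in −N, from -0.19 to 0.22 in −E−N against −E and from -0.24 to 0.31 for the interaction, Grhl2 from -0.014 to 0.38 in −E and from -0.11 to 0.29 for the interaction, and Foxd3 from -0.17 to 0.043 in −E and from -0.016 to 0.34 in −N. Between media, Pou3f1 ran from -0.15 to 0.43 in −N and Fgf5 from -0.42 to 0.12 in −E−N.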
